A study of Mus musculus with 18 samples.

Results

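The 10 genes described here (Mdm2, Ccng1, Trp53inp1, Sesn1, Bbc3, Bax, Zmat3, Phlda3, Plk2 and Eda2r) are transcriptional targets of p53 other than Cdkn1a, and were taken by symbol from the 54347 genes of a mouse RNA-seq count table. All 10 had a row and all 10 were tested in every comparison. Expression was measured in marrow-derived mesenchymal stem cells (MSC) of male C57BL/6J mice, adherent progenitors that can become bone or fat cells, grown as a primary line pooled from several animals. The first experiment held cells without treatment (control), cells given CK666, which keeps the Arp2/3 complex from branching filaments, and cells given cytochalasin D (CytoD), a mould toxin that stops actin from adding to filament ends. The second held transfected cells only. They carried either a control siRNA ("siRNA mock" in the labels, here siControl), an siRNA that targets Arp4, the nuclear actin-related protein encoded by Actl6a (siArp4), or the Arp4 siRNA together with CK666 (siArp4+CK666). Each of the 6 groups held 3 libraries from separate preparations. Transfection preceded the treatment overnight. The preparations come from the same primary line, so p-values measure the spread between preparations and not between animals. No group with siControl and CK666 was analysed here.

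The transcription factor p53 is held low in unstressed cells by Mdm2, a ubiquitin ligase that marks it for destruction and is itself a p53 target, which closes a feedback loop. When p53 is released from this control it binds a response element made of adjoining decamers and raises genes for cell cycle arrest, DNA repair, restraint of growth signals and cell death. In marrow stromal cells p53 is known as a brake on both proliferation and bone formation. The 10 genes cover several of these branches. Mdm2 (ENSMUSG00000020184.15, chr10:117688875-117710758, minus strand) stands for the feedback loop, and cyclin G1, encoded by Ccng1 (ENSMUSG00000020326.7, chr11:40748552-40755311, minus strand), is known to recruit a phosphatase to Mdm2. Trp53inp1 (ENSMUSG00000028211.11, chr4:11156431-11174379, plus strand) encodes a nuclear protein that promotes p53 activity and autophagy. Bbc3 (ENSMUSG00000002083.13, chr7:16308393-16318205, plus strand) encodes PUMA, a BH3-only protein that starts apoptosis, and Bax (ENSMUSG00000003873.11, chr7:45461697-45466898, minus strand) encodes a pore former of the mitochondrial outer membrane. Sesn1 (ENSMUSG00000038332.13, chr10:41809935-41908424, plus strand) encodes a sestrin that restrains mTORC1. Phlda3 (ENSMUSG00000041801.5, chr1:135766119-135769136, plus strand) encodes a pleckstrin homology protein that competes with Akt for membrane lipids. Zmat3 (ENSMUSG00000027663.12, chr3:32334792-32366014, minus strand) encodes an RNA-binding zinc finger protein. Plk2 (ENSMUSG00000021701.8, chr13:110395046-110400844, plus strand) encodes a polo-like kinase, and Eda2r (ENSMUSG00000034457.10, chrX:97333840-97377216, minus strand) a TNF receptor family member that binds ectodysplasin A2. Coordinates are on GRCm38 and span the annotated gene. The span of Sesn1 overlaps that of the gene 9930024M15Rik on the same strand, which had a mean of 0.1 normalized counts. The span of Bax overlaps that of Gm45808 on the same strand, with a mean of 0.0. Whether exons share bases was not examined.

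Since p53 acts through its response element, promoters were searched for its decamer consensus, which reads the same on both strands. RefSeq windows (GRCm38.p6) from 250 bases before to 50 bases after a transcription start were given for 8 of the 10 genes, 11 windows in all, and not for Trp53inp1 and Zmat3. A decamer without mismatch stood in 4 of the 11 windows, against 2745 of 32851 windows of all genes (8.36%). These 4 stretches are shown, on the strand of the gene, with the decamer in capitals. They lie at chr10:117710915-117710964 (Mdm2), chr11:40755442-40755491 (Ccng1), chr7:45467070-45467119 (Bax) and chr10:41887246-41887295 (Sesn1).
Mdm2: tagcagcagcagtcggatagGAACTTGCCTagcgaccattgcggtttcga
Ccng1: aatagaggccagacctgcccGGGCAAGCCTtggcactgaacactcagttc
Bax: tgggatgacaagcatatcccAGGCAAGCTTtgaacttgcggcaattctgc
Sesn1: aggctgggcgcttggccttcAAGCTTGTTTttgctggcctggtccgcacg
The decamer began 186 bases before the start in Mdm2, 185 in Ccng1, 201 in Bax and 173 in Sesn1, where it belongs to the downstream start of 2. A pair of decamers at most 13 bases apart, with at most 1 mismatch over both, was found in the windows of Ccng1 and Bax and in 359 windows of all genes (1.09%). No window of the other members held a decamer without mismatch, which says only that it is absent from this stretch. A match is a description of the letters and not a measured binding site.

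Library totals ran from 18075610 to 24733212 estimated counts, and counts were divided by size factors within each experiment, so levels are compared only inside an experiment. Replicates of a group differed by a chi-square of at least 6.79 per degree of freedom over genes, more than sampling noise. The knockdown target Actl6a was at 720.1, 1127 and 841 normalized counts in siControl, 48.8, 57.2 and 19 in siArp4 and 9.52, 22.9 and 17.9 with CK666 added, so that it was left at 4.66% of siControl in siArp4 and at 1.87% in siArp4+CK666. In each group 8 of 12 marrow stromal markers had a mean of at least 100 normalized counts and 1 was at 0. Of 9 macrophage and blood cell markers 2 to 5 were at 0 and the highest group mean was 112 (Cd68), and of 5 endothelial markers it was 23.4 (Kdr). The summed stromal markers were lower with CK666 (66119 to 74459 normalized counts, against 130991 to 137116 in control) and in siArp4+CK666 (64731 to 74503, against 118777 to 129428 in siArp4), and higher with CytoD (189557 to 199639). The highest single means were Col1a1 in control (60080) and Cxcl12 in CytoD (107667). At a DESeq2 adjusted p below 0.01, 0 of 10 tested stromal markers passed higher and 7 lower with CK666, against 15.3% and 14.7% of all genes. With CytoD 3 passed higher and 2 lower, against 13.6% and 16%. In siArp4+CK666 against siArp4 1 passed higher and 3 lower, against 3.82% and 6.07%. The summed macrophage and blood cell markers were also higher with CytoD (351 to 386, against 223 to 289 in control), where 2 of 4 tested were higher and 0 lower at a DESeq2 adjusted p below 0.01. The summed endothelial markers were at 21.1 to 25.8 in siArp4+CK666 and 5.03 to 6.54 in siControl, and Kdr, the 1 tested, was higher there (log2 change 2.67 ± 0.68, adjusted p 0.000396). The part of these markers in the results below was not tested. In these bulk samples, fewer cells of a type and less RNA per cell cannot be told apart.

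Libraries of the same group differed in a length trend that touched these genes directly. Across all genes expressed at a mean of at least 100, the deviation of a library from its group mean ran with transcript length. Spearman's rho ran from -0.668 in CK666 replicate 1 to 0.639 in CK666 replicate 2. In the second experiment it ran from -0.595 in siArp4+CK666 replicate 3 to 0.613 in siControl replicate 1 and siArp4+CK666 replicate 1. In siControl replicate 2 rho was -0.529. The annotated transcripts of Bax (1100 bases, 63.5% GC), Phlda3 (1435 bases, 62.6% GC) and Bbc3 (1814 bases, 65.2% GC) are short and GC-rich, and those of the other 7 members ran from 2800 to 7797 bases with 38.8% to 49.8% GC. The longest transcript of all genes with a mean of at least 100 had a median of 3484 bases and 49.4% GC. On the log2 scale the short members of siControl replicate 2 lay 0.81 above their group mean and the long members at -0.49, and in siControl replicate 1 the short members were at -0.87 and the long members at 0.49. The normalized count of Bax was 0.393 times that of Ccng1 in siControl replicate 1 and 3.58 times in siControl replicate 2. The median coefficient of variation of the 10 genes was 40.3% in siControl against 5.35% in control, and 15.3% in siControl once the length and GC trends of each library had been removed, an alternative chosen after seeing the data. That step removes such trends between groups too. The values with the trends removed are given wherever they change what passes.

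**Figure D1:**
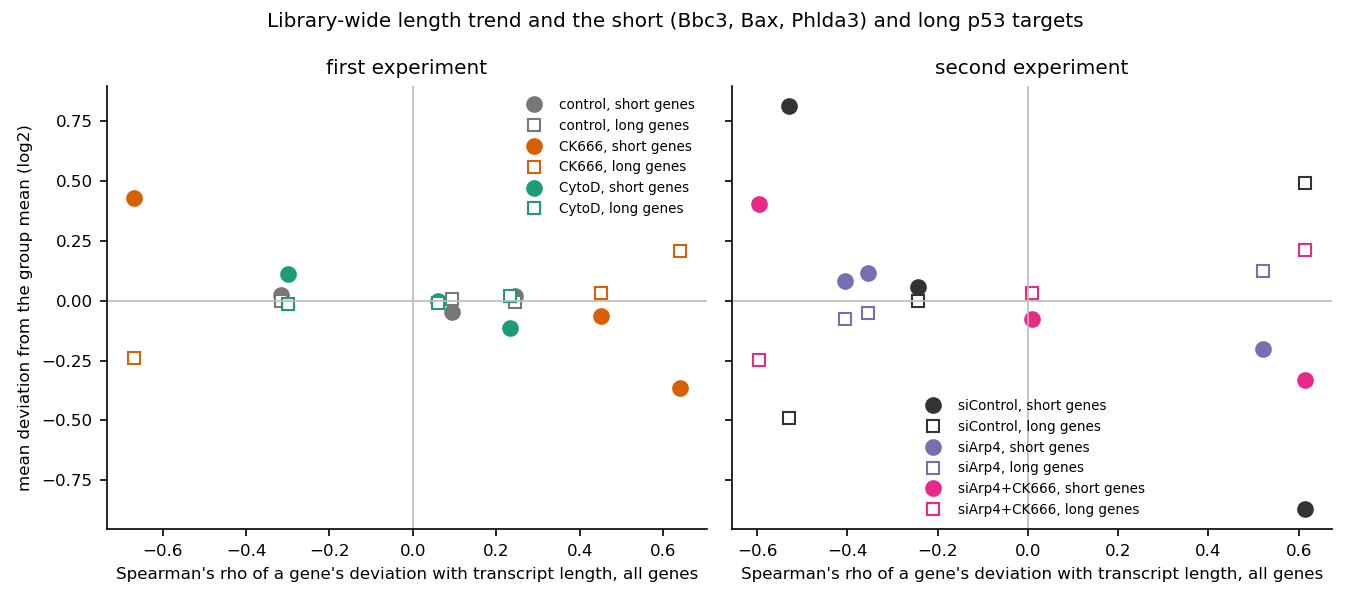
Mean log2 deviation of the 3 short members (circles) and the 7 long members (squares) from their group mean in each library (y axis), against the library's Spearman's rho of all genes' deviations with transcript length (x axis), with control, CK666 and CytoD on the left and siControl, siArp4 and siArp4+CK666 on the right. In siControl replicate 2 (rho -0.529) short members are at 0.81 and long members at -0.49, and in siControl replicate 1 (rho 0.613) they are at -0.87 and 0.49.

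Levels differed widely among the 10 genes. Per kilobase of annotated exon, the mean normalized count in control was 4679 ± 177 for Ccng1 (SD, n = 3), 3847 ± 251 for Phlda3, 1865 ± 16.7 for Bax and 1130.2 ± 59.7 for Mdm2. It was 339 ± 18.4 for Zmat3, 296 ± 9.04 for Eda2r and 206 ± 6.02 for Plk2. Lowest were Trp53inp1 at 169.7 ± 10.8, Bbc3 at 111 ± 10.4 and Sesn1 at 72 ± 13.8. No 2 neighbours in this order overlapped within 1 SD. In CytoD, Trp53inp1 stood in the middle of the order (583 ± 19.6) and Plk2 last (127 ± 3.62). Among transfected cells Bax had the highest mean in all 3 groups, at 8643 ± 6067 in siControl, 5375 ± 701 in siArp4 and 5805 ± 1750.0 in siArp4+CK666, although in siControl the mean ± SD ranges of Bax, Phlda3 (7003 ± 4559) and Ccng1 (3058 ± 1116) overlapped, and in siArp4+CK666 that of Bax overlapped those of Ccng1 (3938 ± 579.7) and Phlda3 (3138 ± 972). Sesn1 was the lowest of the 10 in those groups too.

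**Figure D2:**
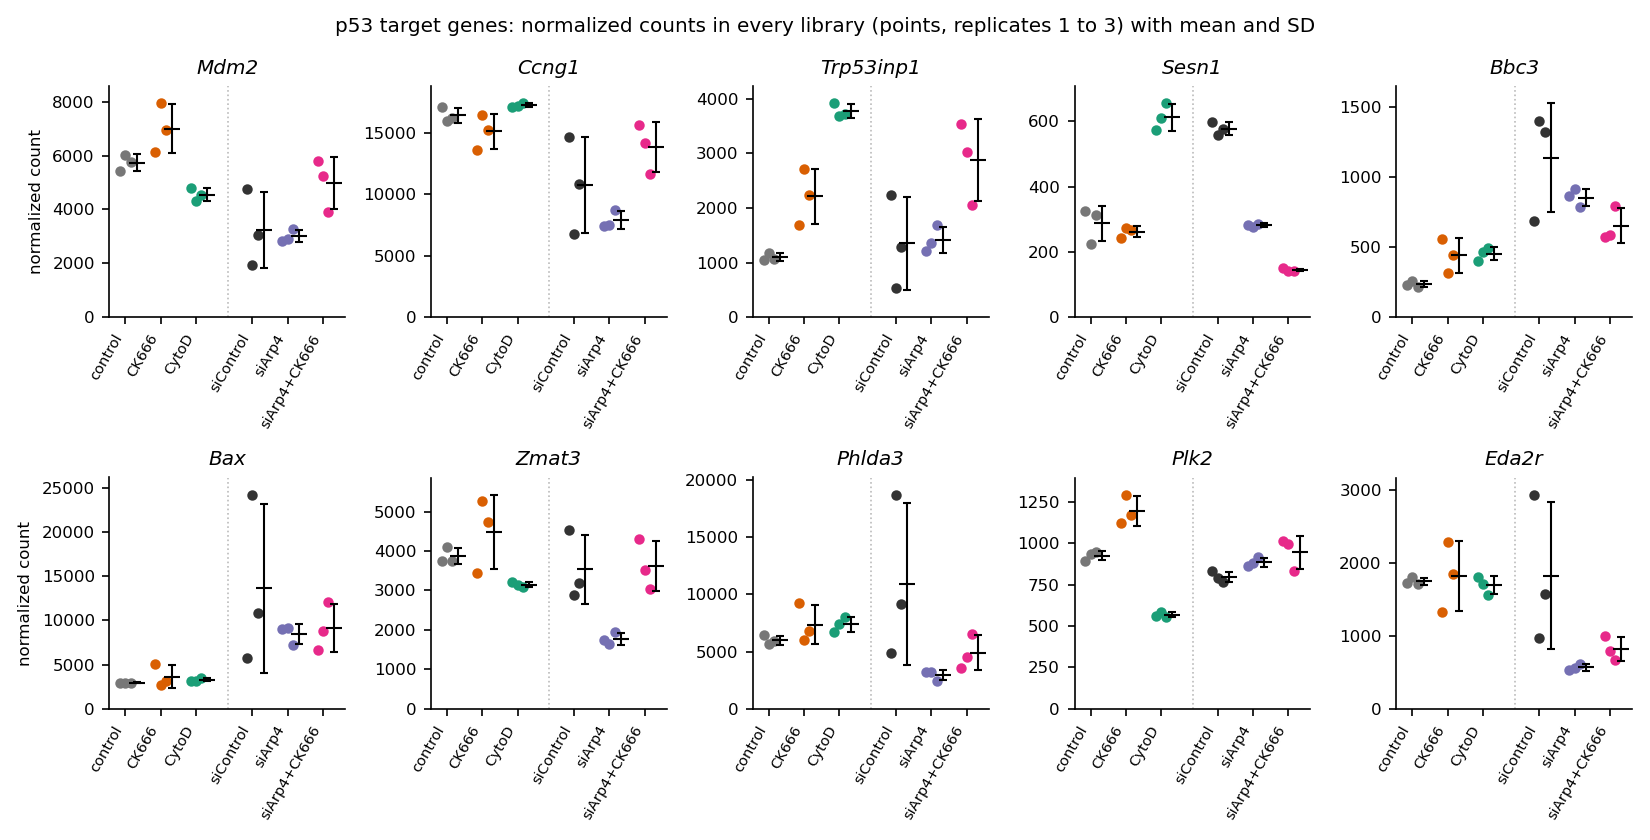
Normalized count (y axis, from 0) of each gene in each of the 18 libraries (points, replicates 1 to 3 from left to right) by group (x axis), with the mean and SD beside them. The dotted line parts the experiments, which were scaled separately. Sesn1 in siArp4+CK666 (144 ± 4.29, SD) lies below all other groups of its experiment, and the siControl points of Bax run from 5742 to 24260.2.

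CK666 asked how a loss of actin branching changes transcription. Against control, Trp53inp1, Bbc3 and Plk2 rose, and no member fell. Trp53inp1 was 2.01-fold and Bbc3 1.87-fold higher, so a promoter of p53 activity and a starter of apoptosis rose together with the kinase Plk2 (1.29-fold). Mdm2, Ccng1, Sesn1, Bax, Zmat3, Phlda3 and Eda2r did not pass. Values in parentheses are log2 fold changes ± SE of the DESeq2 fit. A member was counted as passing at a DESeq2 adjusted p (Benjamini-Hochberg over all genes tested) below 0.01, and as called when its absolute log2 fold change was also over 1. Of the 10 members 3 passed higher and 0 lower, against 15.3% and 14.7% of 14597 tested genes, and 1 was called, Trp53inp1, against 11% of all genes. At an unadjusted p below 0.05 there were 4 higher and again 0 lower, and the edgeR quasi-likelihood test likewise passed 3 higher and 0 lower. The median log2 fold change was 0.29 over the members and 0.01 over all genes tested.

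Trp53inp1 stood at 1048, 1178 and 1071 in the control libraries and at 1696, 2706 and 2233 in CK666 (log2 change 1.01 ± 0.16, adjusted p 3.36e-09). The groups did not overlap, and the lowest CK666 value was in replicate 1, the library shifted towards short transcripts. The call rests on a fold change just over the minimum, and in a fit of all 18 libraries it was 0.996 with an adjusted p of 0.0175. Bbc3 was at 229, 260.0 and 217 in control and at 559, 316 and 445 in CK666 (log2 change 0.90 ± 0.21, adjusted p 0.000111), without overlap, and here replicate 1 was the highest. With the length and GC trends removed the rise of Bbc3 was 0.64 (adjusted p 5.09e-05) and that of Trp53inp1 1.11 (adjusted p 1.11e-32). Plk2 went from 894, 935 and 945 to 1120.0, 1295 and 1169 (log2 change 0.37 ± 0.10, adjusted p 0.0012), a small rise with no overlap that no longer passed in 5 of 9 fits that left out 1 library.

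Mdm2 was at 5428, 6032 and 5776 in control and 6134, 7952 and 6937 in CK666. Every CK666 value exceeded every control value, but the difference did not pass (log2 change 0.29 ± 0.12, adjusted p 0.0347). Without CK666 replicate 1 it passed, at 0.38 (adjusted p 1.67e-05), as did Zmat3 at 0.38 (adjusted p 2.95e-06). Zmat3 was at 3746, 4114 and 3755 in control and at 3452, 5277 and 4746 with CK666 (log2 change 0.21 ± 0.15, adjusted p 0.263), with only replicate 1 below control, and passed at 0.36 with the trends removed (adjusted p 1.34e-09). For Bax the control values were 2965, 2939.8 and 2912 and the CK666 values 5074, 2659 and 3139 (log2 change 0.30 ± 0.20, adjusted p 0.239). Replicate 1 was far the highest, and the others lay on either side of control. Phlda3 was likewise highest in replicate 1, with 6422, 5651 and 5921 in control and 9249.7, 5988 and 6759.6 in CK666 (log2 fold change 0.29, 95% interval -0.02 to 0.60). Ccng1 (-0.12, interval -0.30 to 0.06), Sesn1 (-0.13, interval -0.47 to 0.20) and Eda2r (0.06, interval -0.29 to 0.41) overlapped between the groups.

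**Figure D3:**
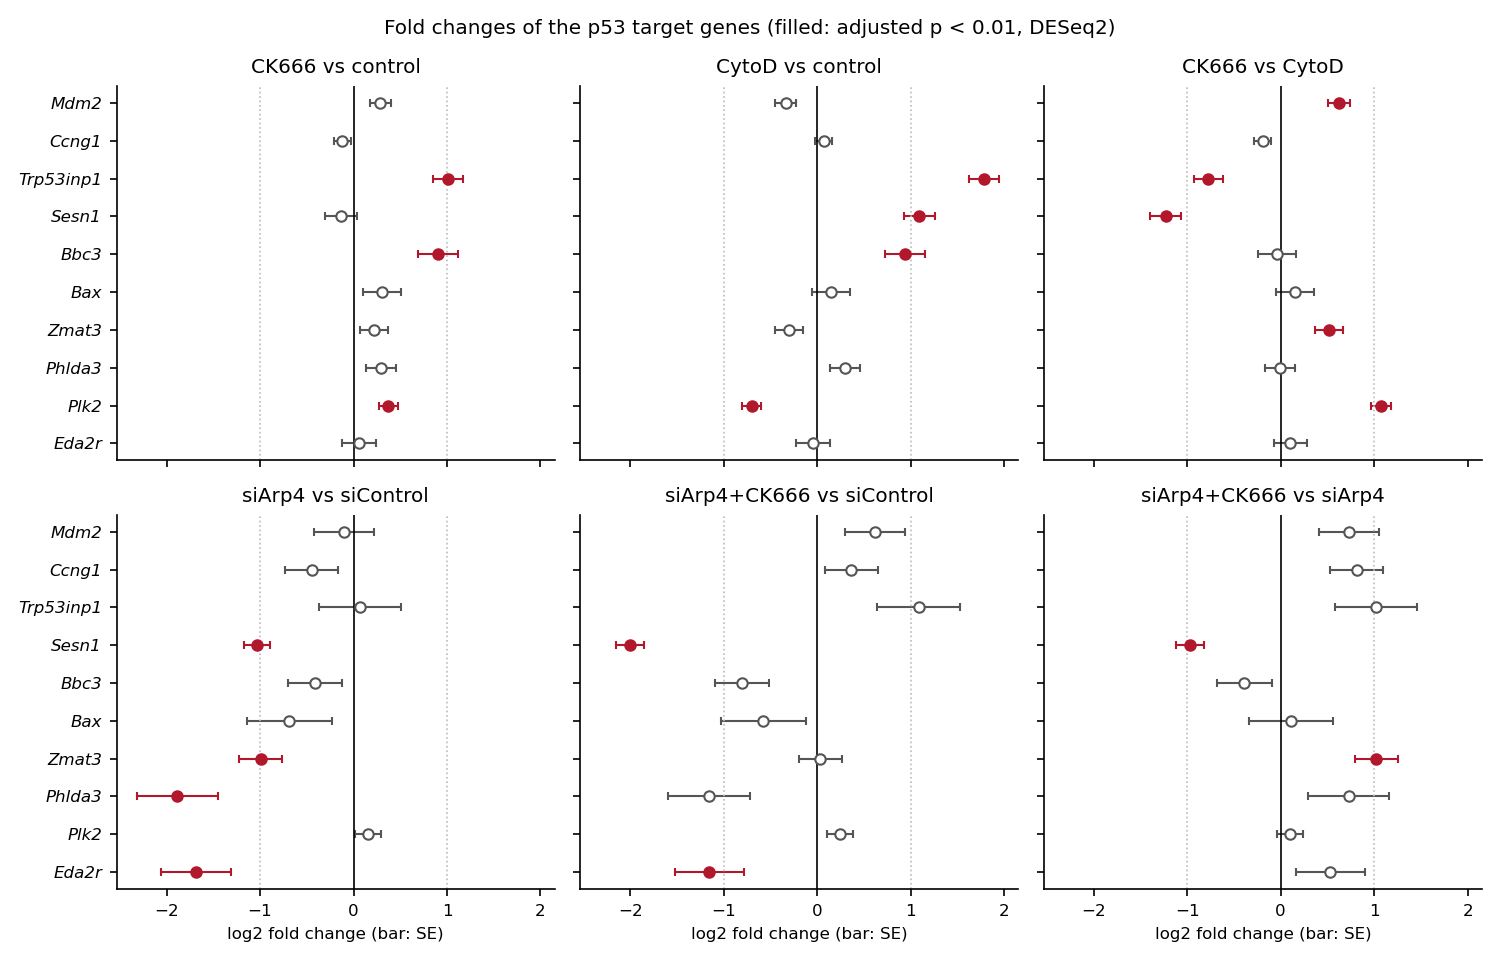
Log2 fold change (x axis; bars, SE; dotted lines at -1 and 1) of the 10 genes (y axis) in the 6 comparisons between groups, filled where the DESeq2 adjusted p is below 0.01. Trp53inp1 and Bbc3 are filled and to the right in both CK666 and CytoD against control, and Sesn1 is filled and to the left in the 3 comparisons of transfected cells.

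CytoD, which changes actin filaments in another way, gave a split response. Trp53inp1, Sesn1 and Bbc3 rose, by 3.44-fold, 2.13-fold and 1.92-fold, and Plk2 fell 1.63-fold. Mdm2, Ccng1, Bax, Zmat3, Phlda3 and Eda2r did not pass. That made 3 members higher and 1 lower, against 13.6% and 16% of 13717 genes tested, with 2 called (Trp53inp1 and Sesn1) against 9.12%. The control libraries are those used for CK666. The median of the members was 0.11 and that of all genes 0.01.

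Trp53inp1 reached 3923, 3684 and 3727 in CytoD, well above every control value (log2 change 1.78 ± 0.16, adjusted p 4.88e-27). Sesn1 was at 324, 224 and 313 in control and 573, 609 and 655 in CytoD (log2 change 1.09 ± 0.17, adjusted p 6.56e-10). Control replicate 2 was the lowest of its group, and all CytoD values lay above all control values. Bbc3 was at 402, 462 and 494 in CytoD, above all 3 control values (log2 change 0.94 ± 0.21, adjusted p 5.24e-05). Plk2 fell to 563, 587 and 555, well below control (log2 change -0.70 ± 0.10, adjusted p 3.03e-10). These 4 changes passed in all 9 fits that left out 1 library. Mdm2 was at 4790.0, 4323 and 4531, below every control value, and narrowly missed the threshold (log2 change -0.34 ± 0.12, adjusted p 0.0114). It passed when only control and CytoD were fitted, without the CK666 libraries (adjusted p 9.67e-07), as did Zmat3 (adjusted p 1.06e-05) and Phlda3 (adjusted p 0.000365). Why they passed there was not tested. Zmat3 was at 3211, 3134 and 3096 (-0.30) and Phlda3 at 6681, 7411 and 8023 (0.30), and neither overlapped control. With the trends removed Zmat3 passed at -0.19 (adjusted p 0.00359). Ccng1 at 17134, 17204 and 17411 (0.07, interval -0.11 to 0.25) and Eda2r at 1807, 1709 and 1560.0 (-0.04, interval -0.39 to 0.30) overlapped control. Bax was at 3185, 3152 and 3458, just above control (0.15, interval -0.24 to 0.55).

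CK666 and CytoD were then set against each other directly, since both were compared with the same control. Plk2, Mdm2 and Zmat3 were higher in CK666, by 2.1-fold, 1.54-fold and 1.43-fold, and Sesn1 and Trp53inp1 were lower, by 2.34-fold and 1.71-fold. Thus 3 members passed higher and 2 lower, against 16.9% and 14.9% of 15038 genes, and Plk2 and Sesn1 were called, against 11.8%. The tests gave log2 change 1.07 ± 0.10, adjusted p 2.49e-23 for Plk2 and log2 change -1.23 ± 0.17, adjusted p 2.85e-12 for Sesn1. Mdm2 (log2 change 0.62 ± 0.12, adjusted p 4.82e-07) and Trp53inp1 (log2 change -0.77 ± 0.16, adjusted p 7.24e-06) passed in all 9 fits without 1 library and missed the threshold in a fit of all 18 libraries (adjusted p 0.0359 and 0.064). Zmat3 (log2 change 0.51 ± 0.15, adjusted p 0.00222) missed it in 5 of those 9 fits and in edgeR. Bbc3 did not pass (-0.04, interval -0.45 to 0.37), nor did Phlda3 (-0.01, interval -0.32 to 0.31), Bax (0.15, interval -0.24 to 0.55), Eda2r (0.10, interval -0.24 to 0.45) or Ccng1 (-0.19, interval -0.37 to -0.01). With the trends removed Ccng1 passed at -0.27 (adjusted p 0.000351), and Plk2 at 0.98 was no longer called.

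Depletion of Arp4 asked what the nuclear actin-related protein contributes. Phlda3, Eda2r, Sesn1 and Zmat3 fell in siArp4 against siControl, by 3.69-fold, 3.22-fold, 2.05-fold and 1.99-fold. Thus messengers of the Akt competitor, the TNF receptor family member, the sestrin and the RNA-binding protein were all lower. No member rose. Mdm2, Ccng1, Trp53inp1, Bbc3, Bax and Plk2 did not pass. The counts were 0 higher and 4 lower, against 11.9% and 13.1% of 15415 genes, and 3 called (Phlda3, Eda2r and Sesn1) against 16.2%. At an unadjusted p below 0.05 the same 4 were lower and 0 higher, and edgeR passed 0 higher and 3 lower, without Phlda3. The median was -0.57 for the members and -0.05 for all genes.

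Sesn1 was the steadiest of these. It stood at 597, 557 and 577 in siControl and at 282, 276 and 287 in siArp4 (log2 change -1.03 ± 0.14, adjusted p 2.54e-12), with coefficients of variation of 3.45% and 1.8%. Zmat3 was at 4525, 2881 and 3197 in siControl and 1739.9, 1649 and 1946 in siArp4 (log2 change -0.99 ± 0.23, adjusted p 0.000122), without overlap. Eda2r went from 2936, 969.6 and 1571 to 532, 552 and 618 (log2 change -1.69 ± 0.37, adjusted p 4.52e-05), again without overlap but with siControl libraries far apart. Phlda3 went from 4848, 18736 and 9168 to 3227, 3189 and 2453 (log2 change -1.89 ± 0.44, adjusted p 0.000119), and its siControl libraries were as far apart, the highest being replicate 2. Without that library the Phlda3 change was -1.25 (adjusted p 0.000599), and without siControl replicate 1 it was -2.24 (adjusted p 3.44e-10). With the length and GC trends removed Phlda3 was at 6837, 9121 and 7522 in siControl and 3155, 3147 and 2986 in siArp4, a change of -1.34 (adjusted p 1.4e-21), smaller than in the counts as deposited. Likewise Zmat3 then changed by -1.11 (adjusted p 5.72e-44) and Eda2r by -1.75 (adjusted p 3.35e-19). Only Ccng1 was added by this step, at -0.55 (adjusted p 0.000445).

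For the remaining members siControl was too spread for a narrow estimate. Ccng1 was at 14617, 6779 and 10826 in siControl and 7452, 7462 and 8717 in siArp4 (-0.45, interval -1.001 to 0.11). Mdm2 was at 4751, 1923 and 3037 and 2841, 2917 and 3274 (-0.11, interval -0.73 to 0.52). The siArp4 values of both lay inside the siControl range. Trp53inp1 was at 2242, 541 and 1279 and 1217, 1355 and 1686 (0.07, interval -0.80 to 0.93). Bbc3 was at 689, 1399.6 and 1322 and 862, 912 and 786 (-0.41, interval -0.98 to 0.16). Bax was at 5742, 24260.2 and 10863 and 9028, 9186 and 7199 (-0.69, interval -1.57 to 0.20), and without siControl replicate 2 its change was 0.02. Plk2, at 829.9, 791 and 766 and 861, 880.1 and 915, was the exception in precision (0.15, interval -0.12 to 0.43), with every siArp4 value above every siControl value.

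Cells with both Arp4 siRNA and CK666 were compared with siControl next. Sesn1 fell 4.01-fold and Eda2r 2.23-fold, and none rose. The other 8 members did not pass. This made 0 higher and 2 lower, against 14% and 15.8% of 15415 genes, both called, against 20.4%. At an unadjusted p below 0.05, 5 members stood out, Trp53inp1 higher and Sesn1, Bbc3, Phlda3 and Eda2r lower, and edgeR passed 0 higher and 1 lower, Sesn1. Sesn1 was at 149, 141 and 142 in siArp4+CK666, 4.01-fold below siControl (log2 change -2.002 ± 0.15, adjusted p 1.09e-39). Eda2r was at 1001, 788 and 670.2 (log2 change -1.16 ± 0.37, adjusted p 0.00649), but siControl replicate 2 lay below the highest of these, so the groups overlapped, and the adjusted p was above 0.01 in 7 of 10 fits that left out libraries.

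Of the other 8 members, all but Plk2 overlapped siControl. Trp53inp1 was at 3535, 3030.4 and 2058 in siArp4+CK666 (log2 change 1.09 ± 0.44, adjusted p 0.0368), Mdm2 at 5799, 5261 and 3903 (log2 change 0.62 ± 0.32, adjusted p 0.112) and Ccng1 at 15656, 14205 and 11635 (0.36, interval -0.19 to 0.92). Phlda3 was at 3600.4, 4517 and 6560.1 (log2 change -1.16 ± 0.44, adjusted p 0.0234) and Bbc3 at 575, 588 and 795 (log2 change -0.80 ± 0.29, adjusted p 0.0181). Bax was at 6603, 8763 and 12079 (-0.57, interval -1.46 to 0.31), Zmat3 at 4301, 3519.7 and 3036 (0.03, interval -0.42 to 0.48) and Plk2 at 1013, 993 and 831 (0.25, interval -0.02 to 0.52). With the trends removed, Trp53inp1 passed higher at 0.94 (adjusted p 6.02e-05), Phlda3 passed lower at -0.50 (adjusted p 0.000747), and Zmat3 turned from 0.03 to -0.24 (adjusted p 0.00562). Without siControl replicate 1 it was 5 members that passed, with Mdm2 at 1.01 and Trp53inp1 at 1.66 higher.

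The effect of CK666 in cells already depleted of Arp4 was read from siArp4+CK666 against siArp4. Zmat3 rose 2.04-fold and Sesn1 fell 1.96-fold, and the other 8 members did not pass. The count of 1 higher and 1 lower compares with 3.82% and 6.07% of 14098 genes, and Zmat3 alone was called, against 5.75%. Zmat3 went from 1739.9, 1649 and 1946 in siArp4 to 4301, 3519.7 and 3036 with CK666 added, every value higher (log2 change 1.02 ± 0.23, adjusted p 0.000162), though edgeR gave an adjusted p of 0.015. Sesn1 went from 282, 276 and 287 to 149, 141 and 142 (log2 change -0.97 ± 0.15, adjusted p 8.98e-09), a further fall on top of that in siArp4. Mdm2 (log2 change 0.73 ± 0.32, adjusted p 0.121), Ccng1 (log2 change 0.81 ± 0.28, adjusted p 0.0316) and Trp53inp1 (log2 change 1.02 ± 0.44, adjusted p 0.111) did not pass. Nor did Phlda3 (log2 change 0.73 ± 0.44, adjusted p 0.322) and Eda2r (log2 change 0.53 ± 0.37, adjusted p 0.428). Bbc3 (-0.39, interval -0.96 to 0.18), Bax (log2 change 0.11 ± 0.45, adjusted p 0.941) and Plk2 (0.10, interval -0.18 to 0.37) did not pass either, and their values overlapped between the groups. The median was 0.63 over the members and 0.02 over all genes.

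What passed here depended on the siControl libraries, which are in the fit but in neither group compared. Without siControl replicate 2, Mdm2 (adjusted p 0.00607), Ccng1 (adjusted p 6.85e-05) and Trp53inp1 (adjusted p 0.00165) passed as well, for 5 members in all, and without siControl replicate 1 it was also 5. With only siArp4 and siArp4+CK666 fitted, 6 passed. Removing the length and GC trends gave 5, namely Zmat3 at 0.87 (adjusted p 5.32e-27), Ccng1 at 0.85 (adjusted p 3.35e-08), Trp53inp1 at 0.91 (adjusted p 0.000238) and Phlda3 at 0.84 (adjusted p 1.48e-08) higher, and Sesn1 at -0.95 (adjusted p 1.63e-11) lower.

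**Figure D4:**
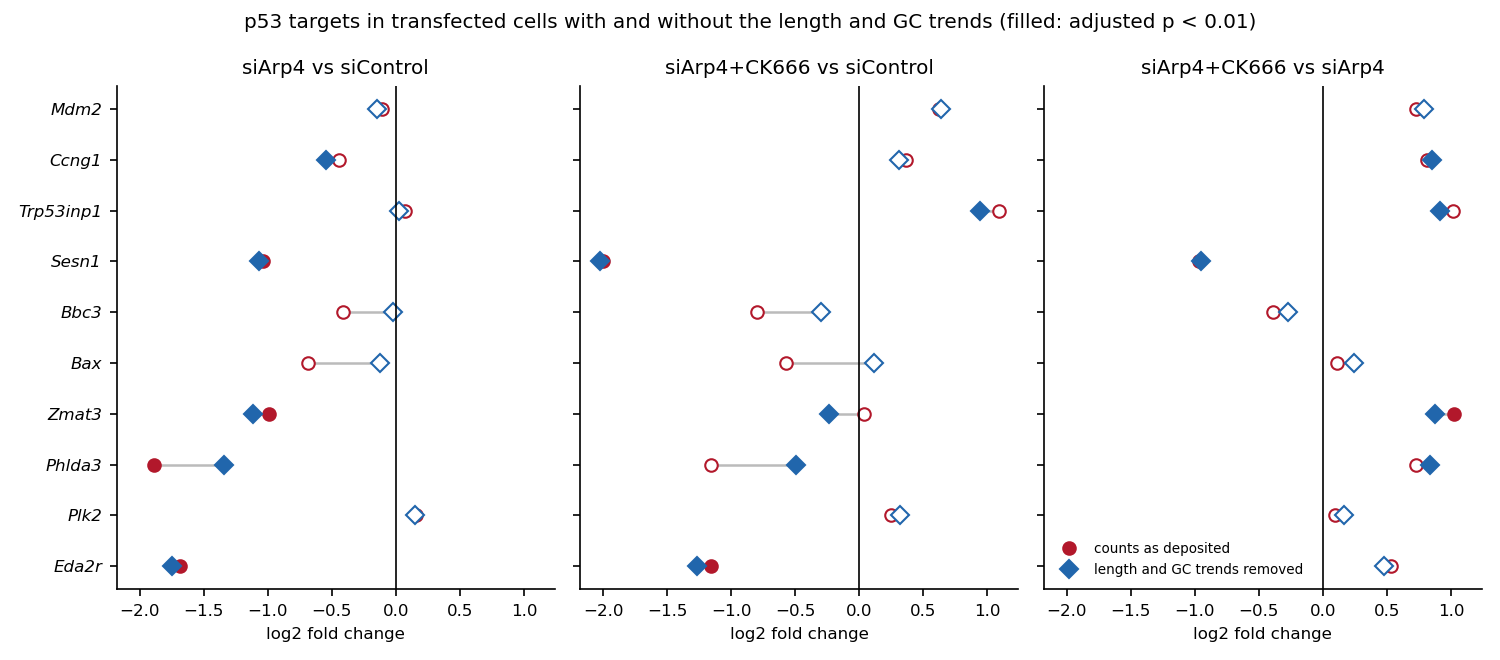
Log2 fold change (x axis) of the 10 genes (y axis) in the 3 comparisons of transfected cells, from the counts as deposited (circles) and with the length and GC trends of each library removed (diamonds), filled where the adjusted p is below 0.01. Sesn1 hardly moves, Phlda3 in siArp4 against siControl goes from -1.89 to -1.34, and Bax in siArp4+CK666 against siControl goes from -0.57 to 0.11.

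Whether CK666 acted differently in Arp4-depleted and in untransfected cells was tested as a difference of the 2 effects over all 18 libraries. Bbc3 and Sesn1 had a lower effect of CK666 in siArp4 cells. In the separate fits the effect on Bbc3 was 0.90 in untransfected and -0.39 in siArp4 cells (log2 difference -1.29 ± 0.37, adjusted p 0.00674). For Sesn1 the effects were -0.13 and -0.97 (log2 difference -0.84 ± 0.20, adjusted p 0.000616). Thus 0 members passed higher and 2 lower, against 3.76% and 4.06% of 13511 genes, and 1 was called, Bbc3, against 4.42%. At an unadjusted p below 0.05 Ccng1 (log2 difference 0.93 ± 0.28, adjusted p 0.0131) and Zmat3 (log2 difference 0.80 ± 0.26, adjusted p 0.0203) were higher and Plk2 (log2 difference -0.28 ± 0.13, adjusted p 0.15) lower besides, and edgeR passed 0 higher and Sesn1 lower. Bbc3 missed the threshold in 11 of 18 fits that left out libraries, while Sesn1 passed in all 18. With the trends removed Bbc3 was at -0.92 (adjusted p 0.000193), and Ccng1 at 0.93 (adjusted p 4.74e-10), Zmat3 at 0.51 (adjusted p 1.93e-12) and Phlda3 at 0.80 (adjusted p 1.57e-07) passed higher. The log2 fold change of Trp53inp1 was 1.01 in untransfected and 1.02 in siArp4 cells, a difference of 0.00048 whose interval ran from -0.96 to 0.96, so equal and unequal effects cannot be parted. Mdm2 (-0.22 to 1.09), Bax (-1.25 to 0.87), Phlda3 (-0.55 to 1.43) and Eda2r (-0.36 to 1.28) had intervals of the difference that included 0. The contrast also holds transfection, which only the cells of the second experiment underwent, and the 2 cannot be told apart.

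p53 itself and its partners were read beside the targets. Trp53, which encodes p53, had 2785, 2579.6 and 2728 normalized counts in the control libraries, 3390.4, 3039 and 3055 with CK666 and 2102, 1994 and 2094 with CytoD. It fell with CytoD (log2 change -0.39 ± 0.09, adjusted p 6.44e-05) and did not pass with CK666 (0.23, adjusted p 0.0249), though it was higher in CK666 than in CytoD (log2 change 0.62 ± 0.09, adjusted p 2.8e-11). Among transfected cells siControl libraries held 1637, 2689 and 2085, siArp4 libraries 2464, 2498 and 2285 and siArp4+CK666 libraries 2427, 2553 and 3019, overlapping throughout. Messenger levels do not show the amount or activity of p53 protein, which was not measured here. Mdm4, a partner of Mdm2 that silences p53, did not pass by DESeq2 in any comparison, and its lowest adjusted p was 0.0262, with CK666. Its means were 1240.4 ± 177 (SD, n = 3) without treatment, 1839 ± 535 with CK666 and 1367 ± 263 with CytoD, and 1387 ± 905, 1079 ± 62.8 and 1583 ± 597 in siControl, siArp4 and the doubly treated cells. Trp73 was at 0 in every library, which allows up to 3 counts in each (counting error only). Trp63, a p53 family member of low level, fell with CK666 from 58.5 ± 1.24 to 14.6 ± 2.8 (log2 change -2.001 ± 0.32, adjusted p 5.68e-09). In CytoD it was at 136 ± 14.1, above its control mean of 58.5, and it was lower in CK666 than in CytoD (log2 change -3.22 ± 0.31, adjusted p 1.94e-23). Of 19 tested genes for p53 and its regulators, 2 passed higher and 3 lower with CK666, 1 and 5 with CytoD, 1 and 3 with siArp4, and 2 and 6 for siArp4+CK666 against siControl, with 3 higher and 2 lower in CK666 against CytoD and 1 and 1 in siArp4+CK666 against siArp4. Of all genes, 15.3% and 14.7%, 13.6% and 16%, 11.9% and 13.1%, 14% and 15.8%, 16.9% and 14.9%, and 3.82% and 6.07% passed higher and lower, in the same order. The checkpoint kinase gene Chek1 led the falls with CytoD (log2 change -1.10 ± 0.25, adjusted p 4.83e-05), followed by Ppp1r13l, which encodes the p53 inhibitor iASPP (log2 change -0.92 ± 0.13, adjusted p 1.83e-11). The kinase gene Hipk2 was the 1 regulator that rose in siArp4 (log2 change 0.87 ± 0.27, adjusted p 0.00661), and Cop1, a ubiquitin ligase for p53, rose in siArp4+CK666 against siArp4 (log2 change 0.78 ± 0.14, adjusted p 2.56e-06).

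Cdkn1a, which encodes the cell cycle inhibitor p21 and is the best known p53 target, passed with neither treatment of the first experiment. Control libraries held 5062, 4964 and 4885, CK666 libraries 5532, 5202 and 5234 (0.10, interval -0.04 to 0.24) and CytoD libraries 5025, 4962 and 5284 (0.03, interval -0.11 to 0.18). In the second experiment it fell in siArp4, from 4793, 6397 and 5801 to 3458, 3370.2 and 3089.9 (log2 change -0.78 ± 0.17, adjusted p 3.68e-05), and was at 3583, 4141 and 4461 in siArp4+CK666 (log2 change -0.48 ± 0.17, adjusted p 0.0144). A list of 20 cell cycle genes that are lowered through p21 and the DREAM repressor was mostly lower, with 18 genes passing lower in CK666, 19 in CytoD, 19 in siArp4, 20 in siArp4+CK666 against siControl and 19 against siArp4. In CK666 against CytoD 4 passed lower and 1 higher, against 14.9% and 16.9% of all genes. For the effect of CK666 in siArp4 against untransfected cells 6 were lower and 1 higher, against 4.06% and 3.76%. The shares of all genes passing lower in the first 5 comparisons were 14.7%, 16%, 13.1%, 15.8% and 6.07%. In those 5 comparisons the medians of the list were -1.18, -1.10, -1.54, -3.44 and -1.83, against medians of all genes between -0.05 and 0.02.

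Other p53 targets, a list that holds Cdkn1a and some paralogues of the members, passed in both directions in the first experiment and more often lower than higher with Arp4 depletion. With CK666 12 of 42 tested passed higher and 7 lower, against 15.3% and 14.7% of all genes tested. Gadd45a, a growth arrest and DNA damage gene, was at 316, 279 and 283 in control and 6158, 3618 and 4371 in CK666 (log2 change 4.01 ± 0.19, adjusted p 3.17e-101), and the stress cytokine gene Gdf15 also rose (log2 change 2.88 ± 0.22, adjusted p 6.65e-36). Thbs1, encoding thrombospondin, fell (log2 change -3.39 ± 0.16, adjusted p 2.33e-101). With CytoD 12 of 41 passed higher and 7 lower, against 13.6% and 16% of all genes. The inflammasome protease gene Casp1 (log2 change 2.12 ± 0.33, adjusted p 2.04e-09) and the reductase gene Dcxr (log2 change 1.63 ± 0.18, adjusted p 2.22e-18) led the rises. Between the treatments 10 of 42 were higher and 13 lower in CK666, against 16.9% and 14.9% of all genes, with Gadd45a (2.71), Gdf15 (2.88) and Thbs1 (-2.66) at the ends.

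In siArp4 1 of 41 other targets passed higher and 20 lower than in siControl, against 11.9% and 13.1% of all genes tested, and 20 did not pass. The falls were led by the peptide transporter gene Tap1 (log2 change -3.37 ± 0.30, adjusted p 9.21e-27) and the death domain gene Pidd1 (log2 change -2.38 ± 0.27, adjusted p 1.53e-17), and Gadd45a (log2 change 1.01 ± 0.19, adjusted p 1.02e-06) was the 1 that rose. In siArp4+CK666 3 passed higher and 18 lower, against 14% and 15.8% of all genes, and 20 did not pass, with Ckap2 (-2.93, adjusted p 1.05e-14) and Tap1 (-2.87, adjusted p 4.57e-20) lowest and Gadd45a (1.62, adjusted p 2.72e-16) and Pmaip1, encoding the BCL2 family protein Noxa (0.91, adjusted p 0.000456), highest. Against siArp4 4 passed higher and 3 lower, against 3.82% and 6.07% of all genes. Among them were Casp1 (0.95, adjusted p 0.00132) upward and the ephrin receptor gene Epha2 (-1.54, adjusted p 1.19e-05) and Thbs1 (-1.20, adjusted p 4.82e-06) downward. The effect of CK666 differed between siArp4 and untransfected cells for 5 of 41, with 4 higher and 1 lower, against 3.76% and 4.06% of all genes. Gadd45a was the lower one (log2 difference -3.40 ± 0.27, adjusted p 2.71e-33), with normalized counts of 8032, 8207 and 7367 without and 10164, 12515 and 13331 with CK666 in siArp4 cells. Gtse1, a G2 and S phase gene (log2 difference 1.25 ± 0.14, adjusted p 7.92e-18), and Thbs1 (log2 difference 2.18 ± 0.27, adjusted p 1.21e-13) led the higher ones. The medians of the list were 0.09, 0.14, -0.76, -0.70 and 0.30 in CK666, CytoD, siArp4, siArp4+CK666 against siControl and siArp4+CK666 against siArp4.

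**Figure D5:**
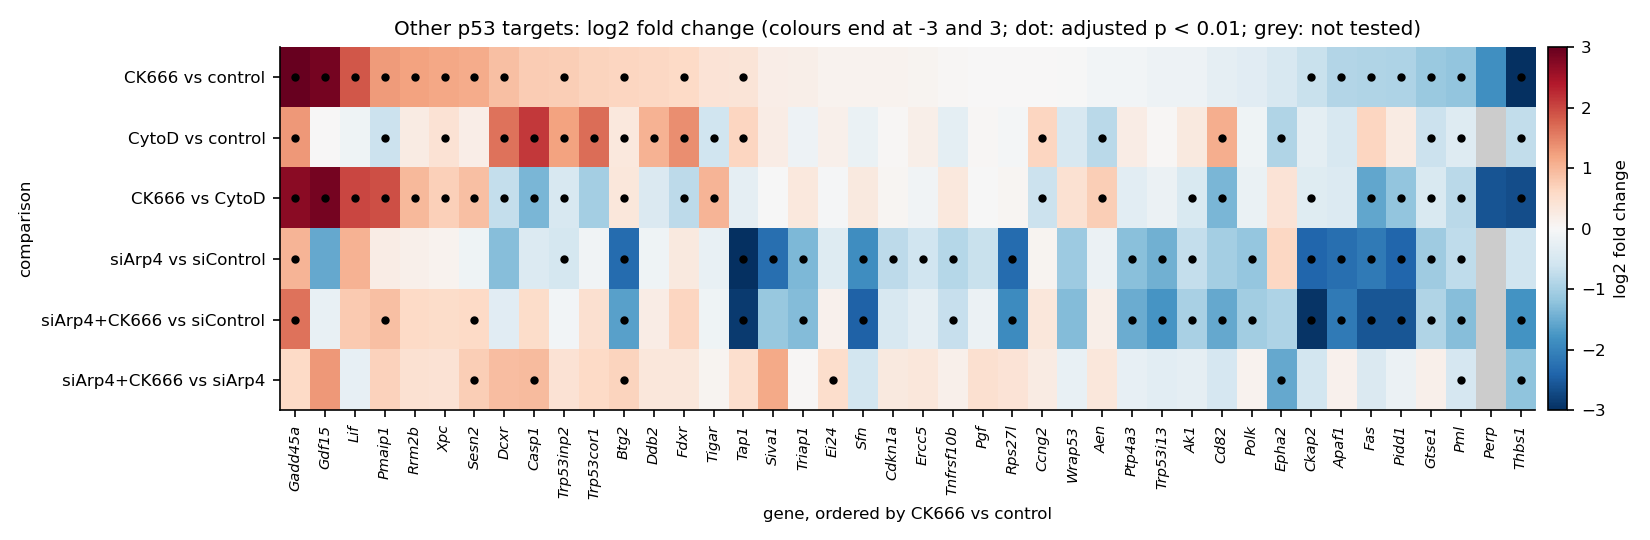
Log2 fold change (colour, ending at -3 and 3) of the other p53 targets tested in at least 1 comparison (x axis, ordered by CK666 against control) in the 6 comparisons between groups (y axis), with a dot where the adjusted p is below 0.01 and grey where a gene was not tested. The siArp4 row against siControl holds 20 dots on falls and 1 on a rise, and the CK666 row 12 on rises and 7 on falls.

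Relatives of the members did not always follow them. Of 10 tested paralogues 3 passed higher and 3 lower with CK666 and likewise with CytoD, 2 and 4 in CK666 against CytoD, 1 and 3 with siArp4, 1 and 2 for siArp4+CK666 against siControl, and 1 and 1 for it against siArp4. Of all genes, 15.3% and 14.7%, 13.6% and 16%, 16.9% and 14.9%, 11.9% and 13.1%, 14% and 15.8%, and 3.82% and 6.07% passed higher and lower, in the same order. Among the sestrins, Sesn2 rose with CK666 from 1422, 1377 and 1285 to 2532, 3139.7 and 3137 (log2 change 1.11 ± 0.12, adjusted p 1.77e-20), where Sesn1 did not pass, and rose again in siArp4+CK666 against siArp4 (log2 change 0.73 ± 0.17, adjusted p 0.000369), where Sesn1 fell. Sesn3 rose with CytoD (log2 change 1.59 ± 0.19, adjusted p 4.94e-15) as Sesn1 did. Trp53inp2, the paralogue of Trp53inp1, rose with both CK666 (0.74, adjusted p 5.36e-08) and CytoD (1.21, adjusted p 2.87e-20) and fell in siArp4 (-0.53, adjusted p 0.00079). Ccng2 rose with CytoD (0.65, adjusted p 3.56e-06). Plk3 rose with CK666 (0.95, adjusted p 2.66e-05) like Plk2, whereas Plk1 and Plk4, kinases of dividing cells, fell with CK666, CytoD and siArp4 (Plk1 with log2 fold changes of -1.38, -1.03 and -2.22). Phlda1 fell with CK666 (-0.90, adjusted p 6.72e-10) and CytoD (-1.18, adjusted p 4.09e-16) and rose in siArp4 (1.55, adjusted p 6.76e-06), where Phlda3 fell.

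Of the BCL2 family genes beside Bax and Bbc3, 10 were tested. The shares of all genes passing in each comparison are those given beside the paralogues. With CK666 2 passed, both lower, the pore former gene Bak1 (-0.42, adjusted p 0.00134) and the survival gene Mcl1 (-0.36, adjusted p 0.00572). With CytoD the BH3-only genes Bmf (log2 change 2.67 ± 0.24, adjusted p 5.03e-26), Bcl2l11 (log2 change 1.93 ± 0.18, adjusted p 1.39e-24) and Bad (log2 change 0.56 ± 0.19, adjusted p 0.00858) rose along with Bbc3. In siArp4 Bak1 (log2 change -1.30 ± 0.17, adjusted p 9.25e-13), Bid (-0.55, adjusted p 6.39e-07) and Bcl2l1 (-0.79, adjusted p 0.00366) fell and Mcl1 rose (log2 change 0.95 ± 0.13, adjusted p 6.95e-12). In CK666 against CytoD 4 were lower and 1 higher. In siArp4+CK666 against siControl Mcl1 (0.62, adjusted p 1.39e-05) and Bcl2l11 (0.68, adjusted p 0.000132) were higher and Bak1 lower (log2 change -1.68 ± 0.17, adjusted p 4.15e-21). Against siArp4 no BCL2 family gene passed by DESeq2, with 7 at an unadjusted p below 0.05, and for the difference of the CK666 effects none passed of this list (2 at an unadjusted p below 0.05), of the paralogues (3) and of p53 and its regulators (3). edgeR was fitted over all genes, but its results were read out only for the 10 members and not for these lists.

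The genes most like Mdm2 in pattern were sought over 9858 genes with a mean of at least 100 in both experiments. Likeness was the lower of the Pearson correlations over the 9 libraries of each experiment, on variance stabilized values, and the libraries share the length trend. The first 5 were Esyt2 (0.977), Sirt1 (0.966), Lats1 (0.954), Slc12a2 (0.953) and Brd1 (0.952), with longest transcripts of 5560, 4430, 7209, 6520 and 5152 bases against 3145 for Mdm2. Among the other members the nearest by this measure were Plk2 at rank 526 (0.683) and Zmat3 at rank 761 (0.617), while Bbc3 was at -0.893 and Sesn1 at -0.839. Some members followed Mdm2 in a single experiment. In the first, Plk2 correlated at 0.951 and Zmat3 at 0.936. In the second, Trp53inp1 correlated at 0.983 and Ccng1 at 0.933, against -0.37 and -0.521 in the first.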

How the data were processed

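Total RNA of 18 cultures was sequenced without strand information. Per the labels and the study's methods, the authors quantified reads with Salmon 1.2.1 against GENCODE transcripts of GRCm38 and deposited a table of estimated counts per gene and library. How transcripts were summed to genes is not given in the sources used here. Groups were taken from the labels. The deposited estimated counts were rounded to whole numbers and fitted with DESeq2 1.42.0 (R 4.3.3), as the study's methods do, with group as the only term, within each experiment of 9 libraries, without shrinkage of fold changes. Differences of the CK666 effect were fitted over all 18 libraries. Adjusted p-values are Benjamini-Hochberg values over all genes tested. edgeR 4.0.16 was an alternative. Normalized counts are estimated counts divided by the size factors of their own experiment. Lengths and GC contents come from GENCODE release 21 annotation of the same build, which matched 54094 of 54347 identifiers. Trend removal fitted each library's deviation on splines with 4 degrees of freedom. Library totals of 18075610 to 24733212 limit precision less than the spread between preparations. All 10 genes were named in every comparison, with p53, Mdm4 and Cdkn1a always, and from the lists of regulators and other targets those with the largest passing changes and a mean of at least 50. The genes and lists were chosen with earlier results of these data known. Lists were described by counts and medians, with no set test. 1 listed gene among the other targets is not reported here and is left out of the counts and medians of its list. The fits were tested on simulated data.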

Additional observations from a re-analysis of the deposited data

Results flagged for a closer look

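The effect of CK666 differed between Arp4-depleted and untransfected cells, by the test of the difference over all 18 libraries (DESeq2), for 2 of the 10 genes and for 3 named genes among the other p53 targets. Sesn1 had a log2 difference of -0.84 (adjusted p 0.000615), with every siArp4+CK666 library between 141 and 149 normalized counts against 276 to 287 in siArp4. Bbc3 had a difference of -1.29 (adjusted p 0.00674), which no longer passed in 11 of 18 fits that left out libraries. Among the other targets Gadd45a had -3.40 (adjusted p 2.71e-33), Gtse1 1.25 (adjusted p 7.92e-18) and Thbs1 2.18 (adjusted p 1.21e-13). Transfection differs between the 2 experiments as well. Groups of 3 libraries were not tested for single outlying samples.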

How the results depend on the processing

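TMM size factors and a minimum of 10 counts in 3 libraries changed no count of members. Tested against a fold change of 2, the called members numbered 0 in CK666 against control, 1 in CytoD against control, 0 in CK666 against CytoD, 0 in siArp4 against siControl, 1 in siArp4+CK666 against siControl, 0 against siArp4 and 0 for the difference of the CK666 effects. edgeR passed and called 1 in siArp4+CK666 against siControl (without Eda2r), passed 1 and called 0 against siArp4 (without Zmat3), and passed 1 and called 0 for the difference (without Bbc3). In 1 fit of all 18 libraries, CK666 against control called 0, CK666 against CytoD passed 2, and siArp4+CK666 against siControl passed 5 and called 4. With only the compared groups fitted, CK666 against control called 0, CytoD against control passed 7, siArp4+CK666 against siControl passed and called 1, and against siArp4 passed 6 and called 2. For these the cause was not tested.

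Removing the length trend gave 3 members passing and called in siArp4+CK666 against siControl, 3 passing and 0 called against siArp4, and 4 passing for the difference. Removing the GC trend too gave 1 called in CK666 against CytoD, 5 passing in siArp4+CK666 against siControl, 5 passing and 0 called against siArp4, and 5 passing and 0 called for the difference. Zmat3 in siArp4+CK666 against siControl then turned to -0.24.

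Leaving out 1 library gave 2 to 5 passing and 0 to 1 called in CK666 against control (5 without CK666 replicate 1, no call without control replicate 1 or 3, and Bbc3 called in place of Trp53inp1 without CK666 replicate 2), and 4 to 7 passing and 2 to 3 called in CytoD against control (7 without CK666 replicate 1, and Bbc3 called in place of Sesn1 without control replicate 2). It gave 4 to 5 passing in CK666 against CytoD, 4 to 6 passing and 3 to 4 called in siArp4 against siControl, and 1 to 5 passing and 1 to 5 called in siArp4+CK666 against siControl, with 5 without siControl replicate 1 and 1 without siControl replicate 3, any siArp4 replicate, or siArp4+CK666 replicate 2 or 3. Against siArp4 it gave 2 to 5 passing and 0 to 2 called, with 5 and 2 without siControl replicate 1 or 2, and 0 called without siArp4 replicate 2 or siArp4+CK666 replicate 1. Without both siControl replicate 2 and siArp4+CK666 replicate 3, 5 passed and 2 were called. For the difference of effects the ranges were 1 to 4 and 0 to 2, with 4 passing without siControl replicate 1 or 2, 2 called without siArp4+CK666 replicate 3, and 1 passing and 0 called without any control, siArp4, CK666 replicate 1 or 3, CytoD replicate 2, or siArp4+CK666 replicate 1 or 2.

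The labels do not say whether the replicate numbers pair the libraries. The deviations of libraries from their group means cannot decide it, because they carry the length trend. Deviations correlated above 0.1 in 5 of 18 same-numbered pairs (r from -0.608 to 0.786), and 7 of 18 libraries correlated best with their own number. With the replicate block CK666 against control called 0 members (Trp53inp1 lay below the fold minimum), and no other count of members moved. The lowest value of any of the 10 genes was 141 normalized counts (Sesn1).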
